A study of Homo sapiens with 8 samples.

Results

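Of the 7169 PML::RARA binding peaks that carried a gene symbol, 103 were labelled with a microRNA gene, for 97 different microRNA genes. They were taken by symbol alone, as every peak whose label started with MIR and was not a host gene name (ending in HG or holding HG-). The whole list held 15412 peaks, of which 8243 had no gene symbol, and the other 7066 gene-labelled peaks served for comparison. A further 3 peaks carried the host gene symbols MIR3936HG, MIR181A2HG and MIR155HG and were counted among those 7066.

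The study mapped binding by Cut&Run, in which an antibody directs a nuclease to the chromatin its target occupies and the released fragments are sequenced. The cells were U937-PR9, a human monocytic line that carries a PML::RARA transgene under a zinc-inducible promoter. PML::RARA is the fusion protein of acute promyelocytic leukaemia, which joins PML to the retinoic acid receptor alpha. The 8 libraries came from induced cells, given 100 μM ZnSO4 for 5 h, and from control cells given sterile water for 5 h, each with an anti-PML-RARA and an anti-RARA antibody in 2 replicates. The peak list analysed here is that of the 2 induced anti-PML-RARA libraries, as peaks that were reproducible between them. Every cell carried the transgene, and the induced cells differed from the controls in zinc as well as in fusion protein. The list gave 1 value a peak and none for each replicate, so the spread between replicates is not known here and no p-values were computed. The number of reads behind a value is unknown too.

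MicroRNAs are short RNAs that repress messenger RNAs by base pairing, mostly through their seed, near the 5′ end. RNA polymerase II makes a long primary transcript, from which Drosha cuts a hairpin in the nucleus and Dicer then cuts the mature strands that Argonaute proteins carry. Many hairpins lie in introns of coding genes and come from the host's transcript, so the start of the primary transcript can lie far from the hairpin that gives the gene its annotated position.

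Mature sequences were found in RefSeq for 86 of the 97 genes, 119 strands in all. Bases 2 to 8, taken here as the seed, differed among all 119, so none of these strands shared that whole stretch. Shorter matches were not counted, and miR-1307-3p (CUCGGCG) and miR-4638-5p (CUCGGCU), for example, differed only in base 8. The other 11 genes were not compared, and for some genes only 1 strand was given. The sequences shown belong to the blood cell microRNAs among the labels (miR-142, miR-22), to the hypoxia-induced miR-210, to widely expressed microRNAs among the labels (miR-19b, miR-26b, miR-191, miR-148a), and to the labels of 3 of the highest peaks. The seed is in capitals.
miR-142-3p: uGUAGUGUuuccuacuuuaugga
miR-142-5p: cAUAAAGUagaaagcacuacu
miR-22-3p: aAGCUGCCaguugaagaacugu
miR-210-3p: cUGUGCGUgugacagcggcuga
miR-19b-3p: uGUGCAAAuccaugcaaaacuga
miR-26b-5p: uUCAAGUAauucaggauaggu
miR-191-5p: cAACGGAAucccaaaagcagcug
miR-148a-3p: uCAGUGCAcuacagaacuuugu
miR-4513: aGACUGACggcuggaggcccau
miR-638: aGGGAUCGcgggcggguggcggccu
miR-1284: uCUAUACAgacccuggcuuuuc

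The motifs around the apexes of the microRNA-labelled peaks were about as frequent as around those of the other gene-labelled peaks. The DNA at the apex, which is the middle of the stretch of highest signal, is shown for 4 peaks that lay outside coding exons, 60 bases to either side on the plus strand of hg19. They were chosen as the MIR142 peak, the highest peak with no coding start near (MIR1284), the highest of all (MIR4513) and one with a repeated receptor hexamer (MIR5093). Capitals mark the hexamer AGGTCA, which retinoic acid receptors bind, its form GGGTCA and the variants of these that read AGTTCA or else GGTTCA. They also mark GGAAG, the core of ETS factor sites such as those of PU.1, on either strand.
MIR142 apex, chr17:56409897-56410017: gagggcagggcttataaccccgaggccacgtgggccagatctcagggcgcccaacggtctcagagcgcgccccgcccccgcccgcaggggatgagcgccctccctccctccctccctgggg
MIR1284 apex, chr3:71591781-71591901: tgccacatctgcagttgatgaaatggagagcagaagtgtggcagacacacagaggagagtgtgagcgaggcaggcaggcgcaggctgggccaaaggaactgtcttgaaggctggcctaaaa
MIR4513 apex, chr15:75079951-75080071: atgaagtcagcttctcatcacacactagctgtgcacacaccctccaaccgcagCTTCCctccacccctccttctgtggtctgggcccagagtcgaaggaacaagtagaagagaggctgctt
MIR5093 apex, chr16:85339868-85339988: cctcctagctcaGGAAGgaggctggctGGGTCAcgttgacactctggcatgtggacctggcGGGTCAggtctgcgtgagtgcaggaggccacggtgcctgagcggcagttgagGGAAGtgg

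Only the MIR5093 window of these 4 held receptor hexamers, 2 of them, while the MIR142 and MIR1284 windows held neither motif. In a wider window of 200 bp to either side of the apex, a receptor hexamer was found in 52 of 103 microRNA-labelled windows (50.5%, with a 95% Wilson interval from 41.0 to 59.9%), and in 45.6% of the others. A direct repeat of 2 hexamers, spaced by 0 to 8 bases, was found at 1 member peak, that of MIR1236 (0.971%, against 1.23%). The GGAAG core was found at 91 member peaks (88.3%, interval 80.7 to 93.2%) against 87.8%. The windows' median GC content was 63.6% in the microRNA-labelled peaks and 64.3% in the others. All of these shares lay close to those of the other gene-labelled peaks, and a match of letters does not show that a factor bound there. The intervals cover the counting of peaks only.

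As a set, the microRNA-labelled peaks were about as high and as wide as other gene-labelled peaks. Height is the largest signal in a peak. The median height was 27 (quartiles 20 and 36, range 16 to 63) for the 103 peaks and 26 (quartiles 20 and 35, range 13 to 86) for the other 7066, a ratio of 1.04. The median width was 1165 bp (quartiles 725 and 1790, range 215 to 5677) against 1108 bp (quartiles 770 and 1538, range 77 to 7313), a ratio of 1.05. The unlabelled peaks were lower and narrower, with medians of 23 and 634 bp.

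**Figure D1:**
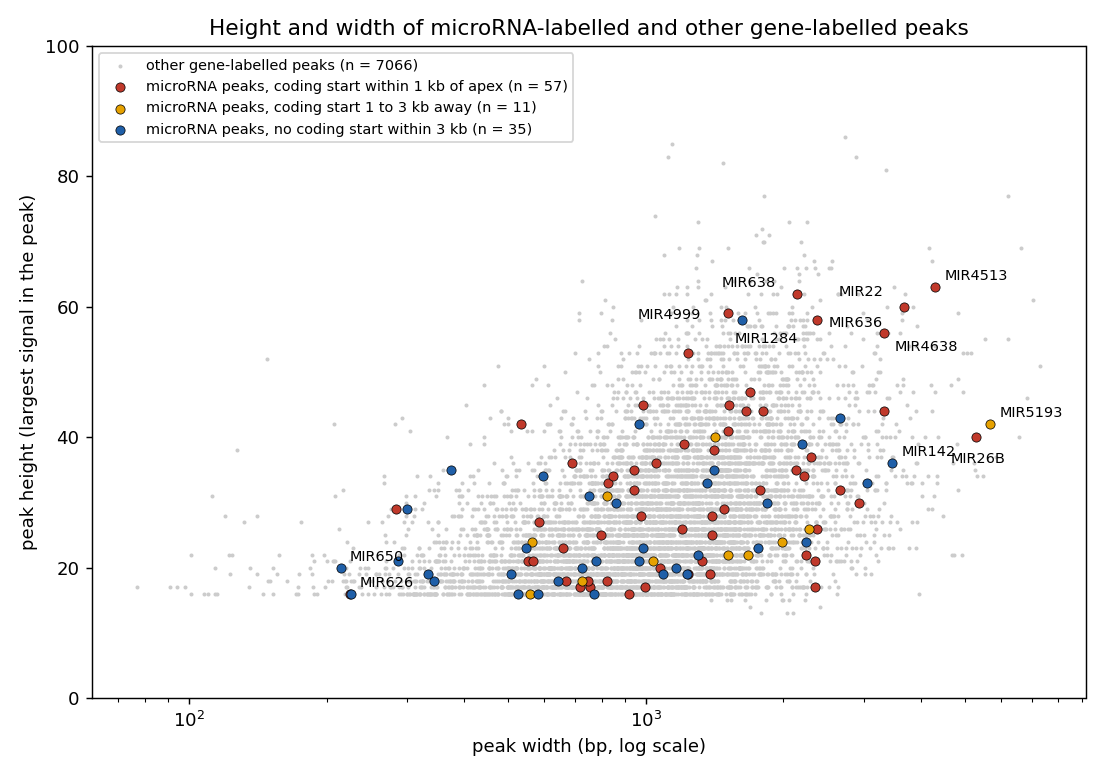
Height (largest signal) against width (bp, log scale) for each peak, with the 103 microRNA-labelled peaks in colour by their distance to a protein-coding start and the other 7066 gene-labelled peaks in grey. The coloured points spread through the grey cloud; the highest (MIR4513, 63) and the widest (MIR5193, 5677 bp) stay inside the range of the others.

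The counts past the other peaks' own limits were close to the background. More than the median height of the others was reached by 52 of 103 member peaks (50.5%), where 48.5% of the others lay above it because of ties. The upper quartile of height was passed by 28 (27.2%, interval 19.5 to 36.5%) against 23.1%. For width, 52 peaks (50.5%) passed the median against 49.9%, 32 (31.1%, interval 22.9 to 40.6%) passed the upper quartile against 25.0%, and 30 (29.1%) fell below the lower quartile against 25.0%. Both intervals took in the background. The SD of log2 width was 1.01 among the microRNA-labelled peaks and 0.80 among the others. Among peaks with no coding start within 1 kb, it was 1.07 and 1.08, and among those with one it was 0.92 and 0.76.

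The microRNA-labelled peaks differed from the others in where they lay. A protein-coding gene had an annotated transcript start within 1 kb of the apex at 57 of 103 (55.3%, interval 45.7 to 64.6%), compared with 90.4% of the other gene-labelled peaks. At 35 (34.0%, interval 25.6 to 43.6%) there was no coding start within 3 kb, against 4.34% of the others, and the remaining 11 lay 1 to 3 kb from one. The median distance from apex to nearest coding start was 491 bp for the microRNA-labelled peaks and 103 bp for the others. Among the 57 peaks near a coding start the median was 114 bp. Starts of 2 coding genes lay within 1 kb at 12 member peaks (11.7%, against 15.1% of the others with 2 or more). Other labels are mostly those of coding genes, so that part of this contrast is set by what was labelled.

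**Figure D2:**
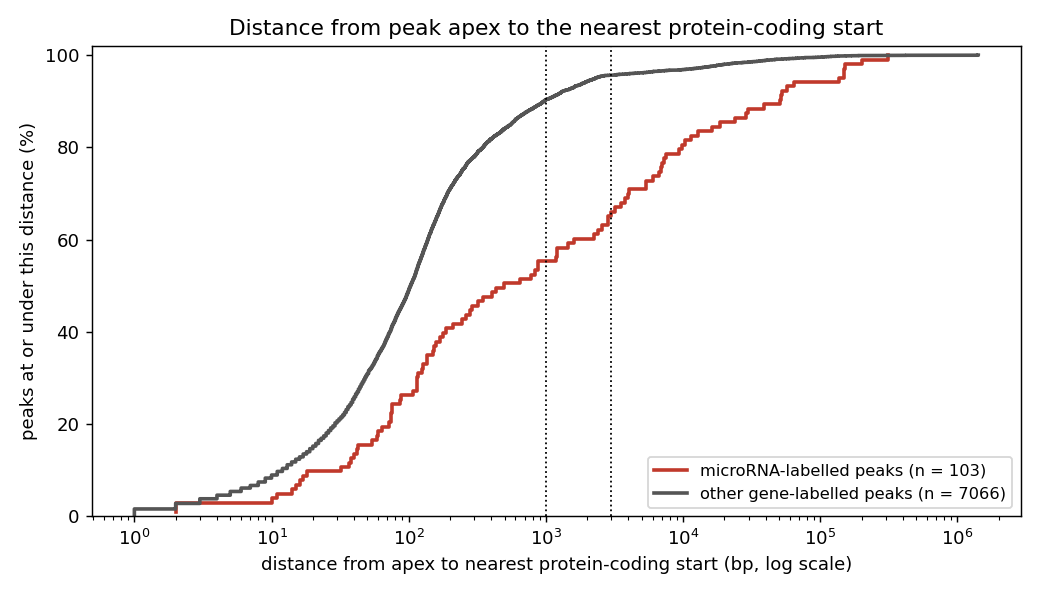
Cumulative share of peaks (%) by distance from the apex to the nearest protein-coding transcript start (bp, log scale), for the 103 microRNA-labelled peaks (red) and the other 7066 gene-labelled peaks (grey). Dotted lines stand at 1 kb and 3 kb, where the red line had reached 55.3% and 66.0%, and a distance of 0 is drawn at 1 bp.

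For these 57 peaks, binding at the microRNA and at the coding gene cannot be told apart. The apex was nearer to the coding start than to the 5′ end of the hairpin at 45 of the 56 with a placed hairpin. This count is partly set by the class, since a hairpin more than 1 kb from the apex always counted as farther. At 41 peaks the coding gene beside the apex was also the gene that held the hairpin. The 57 peaks had 66 coding partners in all. Of these, 10 had a peak under their own symbol elsewhere in the list and 56 did not (84.8%, interval 74.3 to 91.6%). Among coding genes beside a peak with another gene's label, 88.5% likewise had no peak under their own symbol. A search of the list by symbol would thus miss NPM1, NF1, NOTCH1, ID1 and SRSF2, each of which had a start within 1 kb of a peak labelled with a microRNA.

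The peaks near a coding start were the higher ones. Their median height was 32 (quartiles 21 and 41, n = 57), whereas other gene-labelled peaks of the same kind had a median of 26 (quartiles 20 and 35, n = 6385). The upper quartile of the other gene-labelled peaks was passed by 21 of the 57 (36.8%, interval 25.5 to 49.8%), against 23.4% of those others. Without a coding start within 1 kb, the median height was 23 (quartiles 19.3 and 32.5, n = 46), below the 26 of the 681 other peaks of that kind, and 7 of 46 (15.2%, interval 7.57 to 28.2%) passed the upper quartile against 21.0%. The median of the other gene-labelled peaks was passed by 35 of the 57 (61.4%, interval 48.4 to 72.9%), against 48.8%. Without a coding start it was passed by 17 of 46 (37.0%, interval 24.5 to 51.4%), against 46.1%. Of these intervals for height, only that for the upper quartile near a coding start left out the background. The difference in median height from the other peaks had opposite signs in the 2 classes. No test was run on it since peaks are not replicates. Widths did not change sign. Their medians were 1325 bp against 1130 bp with a coding start and 966 bp against 871 bp without, and 20 of 57 (against 25.4%) and 12 of 46 (against 21.1%) passed the upper quartile of width.

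**Figure D3:**
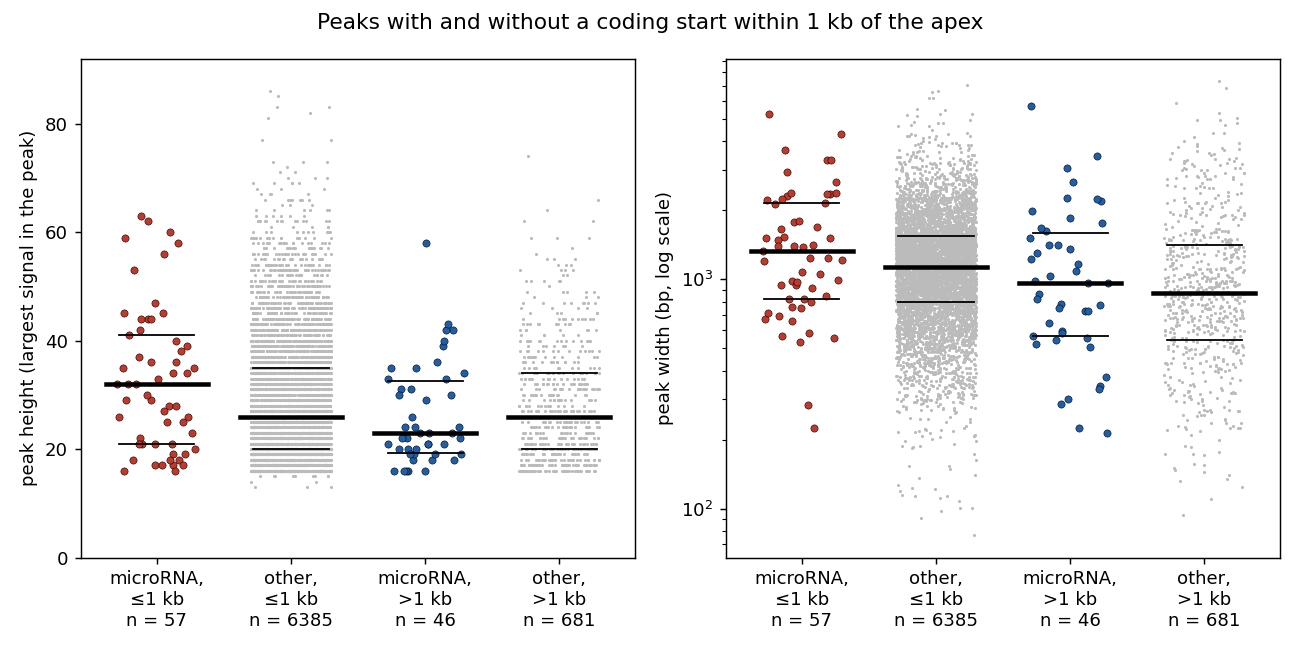
Peak height (left) and width (right, log scale) for microRNA-labelled (coloured) and other gene-labelled peaks (grey), divided by whether a coding start lay within 1 kb of the apex (≤1 kb) or not (>1 kb). Each point is a peak, the thick line is the median and the thin lines are the quartiles; the red points have a median height of 32 and the blue points one of 23, with 26 in both grey groups.

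The apex of the labelled peaks mostly lay upstream of the hairpin. Hairpins were placed on hg19 for 101 peaks, all but those of MIR378D2 and MIR3202-2. The hairpin overlapped the peak at 49 and lay outside at 52. The apex was upstream of the hairpin's 5′ end at 79 and at or downstream of it at 22, with a median position 562 bp upstream (quartiles 1588 and 62 bp upstream), and it lay within 1 kb at 61. At 17 peaks it was more than 2 kb upstream, the farthest being MIR19B1 at 3601 bp and MIR330 at 3477 bp. The edge of the peak nearest to the hairpin's 5′ end was never more than 1982 bp away, whereas the study's methods describe labels set by the apex. A symbol was given by position, and the window used for it is not known here. The side and distance of the apex are thus partly set by the labelling and are no independent result about binding. Peaks that held their hairpin had a median width of 1396 bp and a median height of 26, and those that did not had 891 bp and 25.5. A wide peak is more likely to reach the hairpin, so these widths are no independent result.

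**Figure D4:**
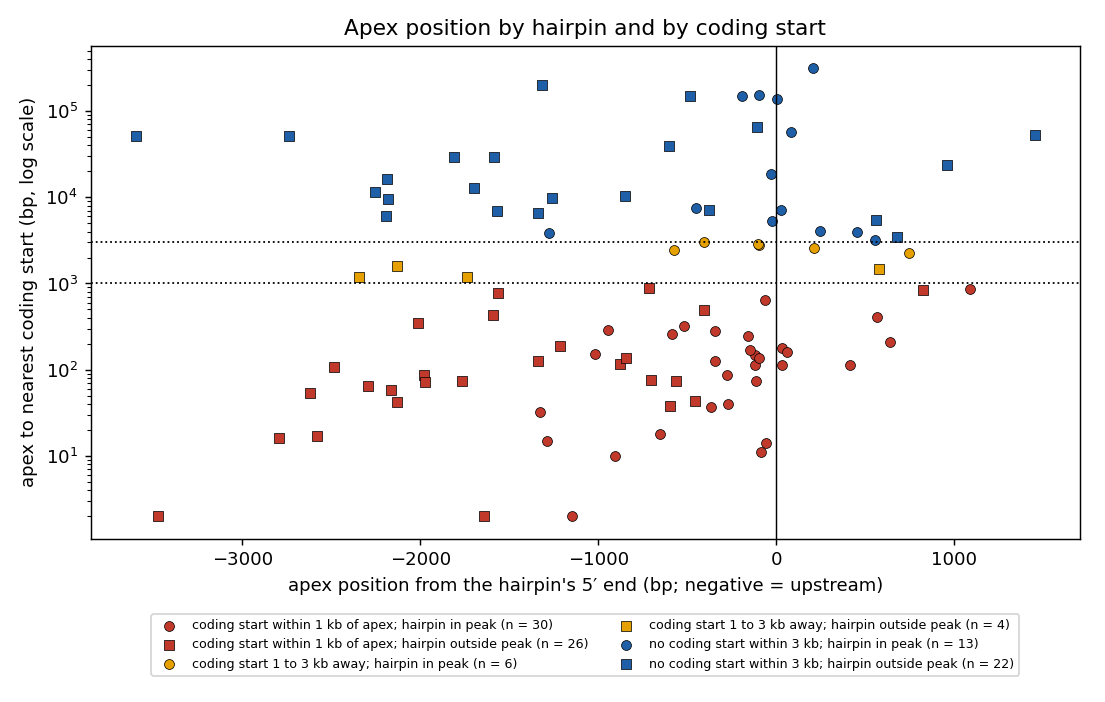
Position of the apex from the hairpin's 5′ end (bp, negative upstream) against its distance to the nearest coding start (bp, log scale) for the 101 peaks with a placed hairpin. Circles are peaks that hold their hairpin (49) and squares those that do not (52); the red points, within 1 kb of a coding start, run from 1087 bp downstream of the hairpin's 5′ end (MIR4513) to 3477 bp upstream (MIR330).

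In relation to coding genes, the hairpin lay inside one at 63 of the 101 peaks, on the gene's own strand at 49 and only on the opposite strand at 14, and between coding genes at 38. Among the peaks near a coding start, the hairpin lay in an intron on the host's strand at 19 (median height 36), in an exon on the host's strand at 16 (median 27.5, counting a hairpin that met an exon of any such host) and outside coding genes at 15 (median 21).

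The highest peaks were, with 1 exception, at promoters of coding genes. The MIR4513 peak reached 63 over 4305 bp, with its apex 874 bp from a start of CSK, which encodes the kinase that holds Src family kinases inactive, and with the hairpin in a CSK intron on the opposite strand. MIR638 reached 62 over 2144 bp beside DNM2, whose product dynamin 2 cuts off endocytic vesicles, with the hairpin in a DNM2 intron on its strand. MIR22 reached 60 over 3675 bp, 2580 bp upstream of its hairpin. Its apex stood 17 bp from a start of the coding gene WDR81 and within 1 kb of a start of MIR22HG, the host RNA from which miR-22 is made, so the peak lay at both starts.

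Further down this group, MIR4999 reached 59 over 1512 bp, 137 bp from RAB11B, a small GTPase gene of recycling endosomes. MIR636 reached 58 over 2376 bp at the paired starts of MFSD11 (2 bp) and SRSF2 (364 bp). SRSF2 is a splicing factor that is mutated in myeloid neoplasms, and the hairpin lay in its coding exon. MIR4638 reached 56 over 3329 bp beside the ubiquitin ligase gene TRIM41 (287 bp), and the higher MIR4721 peak reached 53 over 1235 bp between SH2B1 (108 bp) and TUFM. The exception, MIR1284 at 58, is described with the peaks far from coding starts.

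The widest peaks were partly the same ones. MIR5193 was widest at 5677 bp with a height of 42, its apex inside UBA7, which encodes the activating enzyme of the ISG15 pathway, and its nearest coding start 2239 bp away at INKA1. MIR26B followed with 5275 bp and a height of 40, its apex 16 bp from a start of CTDSP1. That gene encodes a phosphatase of the RNA polymerase II tail, and its intron holds the hairpin 2794 bp downstream of the apex. MIR191 measured 3320 bp with a height of 44 and covered the paired starts of NDUFAF3 (10 bp from the apex) and DALRD3. Its hairpin sits in an intron of DALRD3. MIR4513, MIR22, MIR142 (3468 bp), MIR4638 and MIR3191 (3046 bp) made up the 8 widest.

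Several partners are genes with known roles in leukaemia or blood cells, and their peaks ran from high to low. MIR3912 had a height of 36 with its apex 116 bp from NPM1, nucleophosmin, a common target of mutation in acute myeloid leukaemia. MIR933 had 41 at ATF2 (18 bp), a leucine zipper transcription factor, and MIR3193 had 34 at ID1 (72 bp), an inhibitor of helix-loop-helix factors. The lower ones were MIR4674 at the receptor gene NOTCH1 (21, 177 bp), MIR4733 at NF1, which restrains Ras (17, 43 bp), and MIR718 at IRAK1, a kinase of Toll-like receptor signalling (17, 246 bp).

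Most of the other peaks that lay near a coding start and held their hairpin can be told by their partners. Among those with the hairpin in the partner gene itself, heights were 44 for MIR4738 at the histone gene H3-3B and UNK, 42 for MIR1914 at UCKL1, 39 for MIR658 at ANKRD54, 38 for the higher MIR4257 peak at ADAMTSL4 and 35 for MIR3917 at STMN1, which encodes the microtubule regulator stathmin. They were 30 for MIR1908 at the fatty acid desaturase genes FADS1 and FADS2, 28 for MIR4651 at POR, 26 for both MIR4479 at TRAF2 and MIR4687 at STIM1, and 25 for both MIR4707 at HAUS4 and MIR1538 at NFAT5. They were lowest at 22 for MIR4469 at RNF170 and HOOK3, 19 for both MIR611 at TMEM258 and FEN1 and MIR1181 at CDC37, and 18 for MIR3665 at SLAIN1. With the hairpin outside any coding gene, heights were 37 for MIR3939 at CEP43, 29 for MIR4442 at the topoisomerase gene TOP2B, 28 for MIR3178 at CEMP1, 21 for MIR4522 at WSB1, 20 for MIR3610 at the cohesin gene RAD21 and 17 for MIR320A at POLR3D, a subunit gene of RNA polymerase III.

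At 26 peaks near a coding start the hairpin lay outside the peak, and their median height was 33.5 with a median width of 885 bp. Beside MIR22, MIR4999, MIR4721, MIR26B and those at NPM1, ID1 and NF1, the higher ones were MIR330 (47) at EML2, MIR4434 (45) at AFTPH, MIR4779 (45) at IMMT and MIR3153 (44) at CKS2, a cell cycle gene. Heights from 36 to 27 belonged to MIR4646 at ABHD16A, MIR1236 at SKIC2 and NELFE, MIR1227 at SF3A2 and PLEKHJ1, MIR3684 at METAP1, the wider MIR4257 peak at ADAMTSL4, MIR4784 at MZT2A and MIR1307 at PDCD11 and ATP5MK. The lowest, from 23 to 16, were MIR3613 at TRIM13, MIR4482 at GSTO2, MIR659 at EIF3L and ANKRD54, MIR3944 at ECHS1, MIR3913-1 at CCT2, MIR4785 at RBMS1, MIR615 at HOXC5 and the narrower MIR4721 peak. MIR378D2, whose hairpin was not placed, had a height of 32 at PDP1.

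The 35 peaks with no coding start within 3 kb had no coding promoter as a positional partner, and their median height was 23 with a median width of 860 bp. A long non-coding RNA started within 1 kb of 12 of them, with a median height of 23.5 and a median width of 907 bp. At 15 others the apex lay inside a coding gene with no such start near (median height 22, range 16 to 58), and at 8 it lay between coding genes (median height 21.5, range 16 to 31).

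The first of these groups holds well-known host RNAs. The MIR142 peak (chr17:56407931-56411398) had a height of 36 over 3468 bp and covered its hairpin. Its apex stood 1278 bp upstream of the hairpin, close to the start of MIR142HG at 1205 bp upstream. miR-142 is abundant in blood cells. The peak labelled MIR19B1 lay at the start of MIR17HG, the transcript that carries the miR-17-92 cluster of oncogenic microRNAs, with a height of 24 over 2246 bp (chr13:91999219-92001464). MIR210 had a height of 20 over 725 bp at MIR210HG, 380 bp upstream of the hairpin.

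MIR1207 had a height of 39 over 2198 bp at a start of PVT1, a long non-coding RNA gene beside MYC, which was itself 311613 bp away. MIR4519 had 33 over 1362 bp at MIR762HG, and MIR148A had 34 over 597 bp at starts of unnamed non-coding RNAs. MIR4437 (23), MIR130B (19), MIR9-1 (18) and the 2 MIR5087 peaks (21 and 16) also lay by non-coding starts and were lower. The last of the 12 was the MIR4736 peak with a height of 43 over 2667 bp, at TSPOAP1-AS1.

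That MIR4736 peak belonged to a run of peaks around MIR142. From upstream to downstream of the MIR142 hairpin, in the direction of its transcription, there came the MIR4736 peak of height 43, a second MIR4736 peak of height 23 whose apex stood 26 bp past the 5′ end of its hairpin, the MIR142 peak of height 36, and a peak labelled TSPOAP1 of height 36 and 2066 bp wide at 1659 bp downstream. The MIR4736 peaks were 325 bp apart. The apex of the higher one was 6885 bp upstream of the MIR142 hairpin, and the nearest coding start, of TSPOAP1, was 9408 bp from it.

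**Figure D5:**
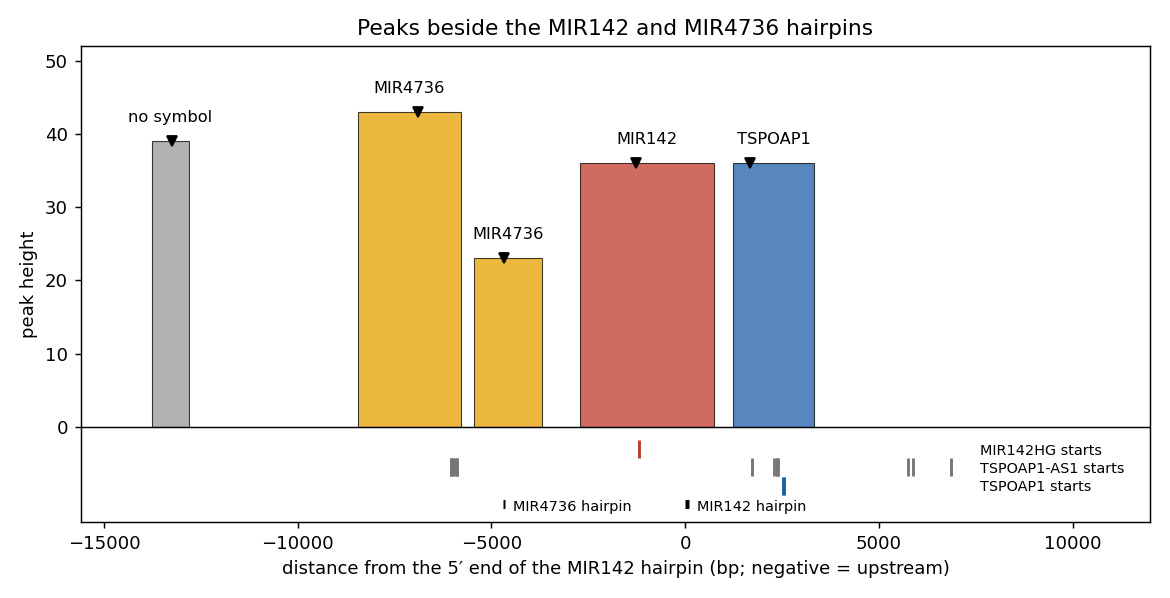
Peaks around the MIR142 hairpin as bars, with the peak's extent on the x axis (distance from the hairpin's 5′ end in bp, negative upstream) and its height on the y axis; triangles mark each apex. Ticks under the axis show annotated starts of MIR142HG, TSPOAP1-AS1 and TSPOAP1, and the hairpins; the MIR142 peak of height 36 spans the hairpin and the MIR142HG start.

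Where the apex lay inside a coding gene and away from coding and long non-coding starts, MIR1284 was the highest. Its peak (chr3:71591303-71592926) had a height of 58 over 1624 bp, 601 bp upstream of the hairpin and in an intron of FOXP1, a forkhead transcription factor gene active in blood cell development, with the nearest coding start 38883 bp away. It was higher than 98.3% of the other gene-labelled peaks. The next in this group, MIR139 in an intron of the phosphodiesterase gene PDE2A, had 42 over 965 bp. MIR5093, whose hairpin the apex met to within 3 bp, had 35 over 375 bp inside GSE1.

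At BAHCC1 there were 3 microRNA-labelled peaks, MIR3186 with a height of 35 and the MIR4740 pair with 23 and 22, all with hairpins opposite to the gene's strand. Peaks labelled BAHCC1 itself had heights of 48 (4653 bp wide, 70 bp from a coding start) and 16 (717 bp wide). MIR3191 had 33 over 3046 bp in BBC3, which encodes the pro-apoptotic protein PUMA, 4014 bp from its nearest start. MIR3155B had 30 in PFKFB3, a regulator of glycolysis. The rest of this group were lower, with heights of 21 for MIR5194 in CYRIB and MIR4715 in ATP10A, 20 for MIR4420 in LAPTM5, a lysosomal membrane protein gene of blood cells, 19 for MIR3151 in BAALC and for MIR4706 where FNTB and MAX overlap, 18 for MIR3907 in CRYGN and 16 for MIR626 in MGA.

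With the apex between coding genes, the heights were 31 for MIR3649, 30 for MIR141, 29 for MIR3925 and 23 for the lower MIR4736 peak. They were 20 for MIR650, 19 for MIR1244-2 and 16 for both MIR7-2 and MIR150. The MIR1244-2 hairpin lay in an untranslated exon of PTMA on its strand, and a PTMA start was 3501 bp from the apex. miR-141 is best known from epithelial cells and miR-150 from lymphocytes.

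A coding start lay 1 to 3 kb away at 11 peaks, with a median height of 24. Beside MIR5193 these were MIR3202-2 near TMEM187 (40), MIR4748 in DNM2 (31), 2 peaks of MIR4734 near MLLT6, a fusion partner of MLL in leukaemia (26 and 24), MIR5187 near TOMM40L (24), MIR3154 in DNM1 (22), MIR3188 at JUND, a member of the AP-1 family (22), MIR4530 near PLEKHG2 (21), MIR4710 near INF2 (18) and MIR4505 in MIDEAS (16).

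Only 6 of the 97 genes had more than 1 peak (6.19%, against 8.45% of the other labelled genes), each with 2. The gap within the pair ran from 126 bp at MIR5087 to 389 bp at MIR4740. The paired heights were nearly equal at MIR4740 (22 and 23) and MIR4734 (26 and 24) and most unequal at MIR4721 (16 and 53).

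At the low end, 7 member peaks shared the lowest height of 16, and 2 of these were near a coding start. They were a peak each of MIR5087 and MIR4721, and those of MIR615, MIR4505, MIR626, MIR7-2 and MIR150. The narrowest were MIR650 at 215 bp, the lower MIR4721 peak at 225 bp, MIR626 at 226 bp and MIR4784 at 284 bp. Of the other gene-labelled peaks, 14 lay below a height of 16, so the low members sat close to the floor of the list.

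Of a list of 72 microRNA genes known from blood cells, 4 had a peak under their own symbol, namely MIR142, MIR22, MIR210 and MIR150. With distance in place of labels, 12 of the 71 that were placed on hg19 had an apex within 3 kb of the hairpin (16.9%, interval 9.94 to 27.3%), against 12.0% of 1323 annotated microRNA hairpins. Hairpins of a cluster can share a peak and were counted separately, which this interval does not allow for. The other 8 of these 12 lay by peaks with another label or none. MIR23A, MIR27A and MIR24-2, which form 1 cluster, shared a peak labelled LOC284454 with a height of 52 over 1879 bp. The rest were MIRLET7I by LINC01465 (25), MIRLET7B by an unlabelled peak (18), MIR424 and MIR503 by LINC00629 (16) and MIR146B by CUEDC2 (16). No apex lay within 3 kb of the hairpins of MIR223, the best-known microRNA of granulocytes, or of MIR21, MIR155, MIR146A or MIR181A1. This limit does not cover starts of primary transcripts that lie farther from the hairpin. MIR155HG, the host RNA of miR-155, had a peak under its own symbol all the same. So had MIR181A2HG, although no apex lay within 3 kb of the MIR181A2 hairpin. The MIR17 hairpin missed that limit as well, although the peak at the start of its host RNA is the one labelled MIR19B1.

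Genes of the microRNA pathway itself were often beside a peak. Of 20 such genes, 14 had an apex within 1 kb of a coding start (70.0%, interval 48.1 to 85.5%), against 38.2% of 19748 coding genes. No expression values were used here, so these coding genes were not matched to the 20 for activity in the cells. KHSRP, an RNA-binding protein gene of hairpin processing, had the highest at 73, followed by the helicase gene DDX5 at 56 and TNRC6B, of the silencing complex, at 35. DROSHA (26), XPO5, which encodes the nuclear export factor of hairpins (28), and AGO1, AGO2 and AGO3 (25, 29 and 22) also had a peak of their own, as had PRKRA (26), RAN (21), DDX17 (19) and ADAR (19). Starts of TARBP2 and TNRC6C lay by a peak labelled MAP3K12 and by unlabelled peaks. There was none at DICER1, DGCR8, AGO4, TNRC6A, LIN28A or LIN28B.

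Across the genome, chromosomes 17 and 19 held the most microRNA-labelled peaks, 13 and 11 of the 103 (12.6% and 10.7%), compared with 6.96% and 7.77% of the other gene-labelled peaks. Chromosome 8 held 7 (6.80%), compared with 2.96% of the others. The share on chromosome 17 counts the 6 peaks of the MIR142, MIR4736, MIR4740 and MIR3186 runs separately, and also the 2 of MIR4734.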

How the data were processed

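Binding was measured by Cut&Run in 8 libraries, and the deposited list of the 2 induced anti-PML-RARA libraries was analysed here. Per the study's methods, the authors used Trimmomatic for trimming, Bowtie2 for alignment to hg19 and SAMtools to drop duplicates, left out blacklisted regions, called peaks with SEACR against paired controls and kept those reproducible between replicates. The authors deposited signal values for each peak, with no normalization stated, together with position, width and a gene symbol from a UCSC annotation. The values headed summit were read here as the total signal and those headed SEACR_score as the largest signal. Whether these signal values come from pooled replicates is not given in the sources used here, and the depth is unknown.

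Here, the apex was the middle of the deposited interval of highest signal (34 peaks gave only its first base, none of them labelled with a microRNA). Coding starts were those of protein-coding transcripts in GENCODE 44 mapped to hg19, and coding genes that share a peak were those with a start within 1000 bp of the apex. Hairpins came from GENCODE by name (89 peaks), from an exact match of the RefSeq hairpin on hg19 (11) or from both mature strands (1). Mature sequences were taken from RefSeq as given for the GRCh38 assembly. Named were the 8 highest, 8 widest, 4 lowest and 4 narrowest member peaks, those holding their hairpin, those with no coding start within 3000 bp, genes with more than 1 peak, and members of the blood cell list. The remaining peaks and their coding partners were named to account for the members, except 1 peak that is counted but not reported here by name, and the partners described by their role were chosen after their values were seen. Members and lists were chosen with earlier results of these data known. Shares carry 95% Wilson intervals. No test was run, because there is 1 value a peak. The distance, overlap and class functions were checked on simulated data. Python 3.11.15, pandas 2.3.3, scipy 1.17.1, pysam 0.24.0, samtools 1.23.1 and matplotlib 3.10.9 were used.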

Additional observations from a re-analysis of the deposited data

How the results depend on the processing

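The 103 peaks became 106 with host gene symbols, 100 with symbols in the reference tables only, 96 with peaks under 1 kb apart merged, 57 at or above the median height of all peaks and 67 at or above their median width. On the log2 scale, the median height exceeded that of the other gene-labelled peaks by 0.05 and the median width by 0.07. Height reversed to -0.18 among peaks with no coding start within 1 kb, to -0.028 without the widest 1% and to -0.0381 with total signal in place of height. It was 0.30 among peaks with a coding start and 0.23 against unlabelled peaks. Width reversed to -0.0667 without the widest 1%, and was 0.23 among peaks with a coding start and 0.88 against unlabelled peaks. The cause of the reversals was not tested. The share near a coding start was 66.0% within 3 kb and 40.8% with only the 5′ end of each gene, against 55.3%. The share with the hairpin in the peak, 48.5% of those placed, was 60.4% for hairpins within 1 kb of the apex and 98.0% within 3 kb. Within 100 bp of the apex and over the whole peak, receptor hexamers were found in 32.0% and 86.4% and the ETS core in 71.8% and 98.1%, and the direct repeat in 0% and 3.88%, against 0.971% within 200 bp. Height was 0.0196 within 10 classes of width, and width was 0.025 with 1 peak a gene. No paired analysis was possible because each peak has 1 value for both replicates, and neither replicate could be left out for the same reason. Differences between labelled and other peaks have no replicate error here.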
